A study of Mus musculus with 141 samples.

Results

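AMP-activated protein kinase (AMPK) is assembled from a catalytic alpha subunit, a scaffolding beta subunit and a regulatory gamma subunit, and the 6 genes described here, Prkaa1, Prkaa2, Prkab1, Prkab2, Prkag1 and Prkag2, encode one subunit each. They are 6 of the 43432 genes in the mRNA tables, matched by symbol to the gene identifiers of the tables. They were selected on measured values of these data, the TPM of Prkag1 in the medial habenula 48 h after the end of nicotine, where it had the largest rise, so every value of that contrast is a description here and carries no test.

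AMPK senses the energy state of the cell. AMP and ADP bind the gamma subunit and ATP competes for the same sites, the alpha subunit is switched on when upstream kinases phosphorylate its activation loop, and the beta subunit holds the complex together and binds glycogen. Active AMPK slows the synthesis of lipid, glycogen and protein and promotes glucose uptake, fatty acid oxidation and autophagy, and in neurons it is known to respond to the energy cost of firing and to calcium through CaMKK2.

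Male C57BL/6J mice, 6 weeks old at the start, drank nicotine base at 200 μg/ml for 6 weeks, while control mice drank tartaric acid (TA mice), and all groups had saccharine at 3 g/L in the water. Brains were taken while they drank it (Nic mice), after 48 h of withdrawal (NAWD mice) or after 4 weeks of withdrawal (NLWD mice). The age-matched controls of the NLWD mice drank tartaric acid for 10 weeks (TAL mice). Punches of the interpeduncular nucleus (IPN), the medial habenula (MHb), which projects to it, and the nucleus accumbens (NAc), a reference region outside that circuit, gave 66 mRNA libraries and 75 miRNA libraries, each from RNA of 4 brains pooled. For the IPN the groups TA, Nic and NAWD had 5 mRNA libraries, TAL had 3 and NLWD had 2. For the MHb those same first groups had 4 and the other two had 5. For the NAc NAWD had 4 and every other group had 5. A punch holds many cell types, so that in these bulk samples fewer cells of a type and less RNA per cell cannot be told apart.

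Mapped reads ran from 31405268 to 153458226 per mRNA library, and TPM (a transcript's share of the library, scaled for its length) keeps no record of that depth. The 5 IPN libraries of TAL and NLWD mice stood apart, with 10452 to 15469 genes above 0 TPM against 16533 to 20150 in all others, and in NLWD replicate 2 of the IPN a single small RNA, Rny1, held 35.0% of the TPM. The labelled regions were checked against marker genes. The summed level of 7 MHb markers was 289 to 1526 TPM in MHb libraries, 2.85 to 25 in the IPN and 16.7 to 95.3 in the NAc, and that of 6 accumbens markers was 540 to 3401 TPM in the NAc and at most 265 elsewhere. The 6 markers of GABAergic IPN neurons summed to 678 to 4234 TPM in the IPN and 677 to 2557 in the NAc, so they set the IPN apart from the MHb, at 83.0 to 319, but not from the NAc. The MHb punches also held choroid plexus, whose 5 markers summed to 10321 to 62732 TPM there.

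All 6 genes passed the filter on low values in every comparison. On GRCm38, Prkag1 (ENSMUSG00000067713.6) spans chr15:98812797-98831521 on the minus strand and Prkaa1 (ENSMUSG00000050697.8) lies far from it on the same chromosome, at chr15:5143861-5181899 on the plus strand. Prkaa2 (ENSMUSG00000028518.8) spans chr4:105029874-105109890 (minus), Prkab1 (ENSMUSG00000029513.10) chr5:116013586-116024508 (minus), Prkab2 (ENSMUSG00000038205.8) chr3:97658193-97673812 (plus) and Prkag2 (ENSMUSG00000028944.10) chr5:24862744-25100642 (minus). Kmt2d, a histone methyltransferase gene on the same strand, ends 147 bases upstream of Prkag1, and Ddn lies 3306 bases downstream.

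The 3′ UTR of the Prkag1 transcript Prkag1-201, 576 bases long, holds 1 match to the seed shared by the miR-34 and miR-449 families. It is shown with 3 of the 4 miRNAs whose levels are given below. Bases 2 to 8 of each miRNA, the seed, are in capitals, as are the UTR bases that pair with them, which are bases 42 to 48 of the UTR. The miRNAs are from RefSeq (GRCm38.p6) and lie at chr4:150068473-150068494 (plus), chr9:51103610-51103632 (minus) and chr13:113037549-113037570 (plus), in the order printed. The site lies at chr15:98813315-98813341 (minus).
miR-34a-5p: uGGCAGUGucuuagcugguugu
miR-34b-5p: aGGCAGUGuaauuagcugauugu
miR-449a-5p: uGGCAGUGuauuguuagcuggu
Prkag1 site: gtggccccctCACTGCCtgcctgctgg
The 3 mature sequences share all 7 seed bases and differ after them.

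Prkag1, which encodes the gamma 1 subunit, had the widest range of the 6 genes, from 5.59 to 514.81 TPM over the 66 libraries. Prkag2 followed at 4.23 to 62.12 TPM, Prkab1 at 2.78 to 27.56, Prkaa1 at 0.94 to 14.16, Prkab2 at 0.77 to 8.12 and Prkaa2 at 0.33 to 6.70. Prkag3, the gamma gene of skeletal muscle, lay between 0 and 0.25 TPM in all libraries and is not counted among the 6.

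In the MHb, Prkag1 was higher in NAWD mice than in either other group of the same experiment. It measured 65.66, 8.30, 10.67 and 11.03 TPM in the 4 libraries of TA mice, 10.74, 11.42, 10.47 and 16.50 in those of Nic mice and 175.30, 217.02, 124.67 and 171.21 in those of NAWD mice. All 4 NAWD libraries lay above all TA and Nic libraries, and 1 TA library, replicate 1, lay well above the other TA libraries. The mean was 172 TPM in NAWD mice, 7.19-fold that of TA mice and 14.0-fold that of Nic mice. Without TA replicate 1 the TA mean went from 23.9 ± 27.9 (SD, n = 4) to 10.0 ± 1.48 TPM (SD, n = 3), and the fitted difference of NAWD and TA mice from 2.95 to 3.94.

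Differences were fitted with limma on log2(TPM + 1), with factors that take up variation among libraries of one group, and a gene was called at a Benjamini-Hochberg adjusted p under 0.01. Adding 1 understates the change of genes with low TPM. The fitted log2 difference of Prkag1 in the MHb was 2.95 (SE 0.24) for NAWD against TA mice and 2.63 (SE 0.30) for NAWD against Nic mice. It ranked 1 by size of rise among 17013 genes in the first, the ranking that chose it, and 7 in the second, which shares the NAWD libraries. Of all genes 1.13% and 0.600% were called in these contrasts, and no call is given there for the 6 genes.

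**Figure D1:**
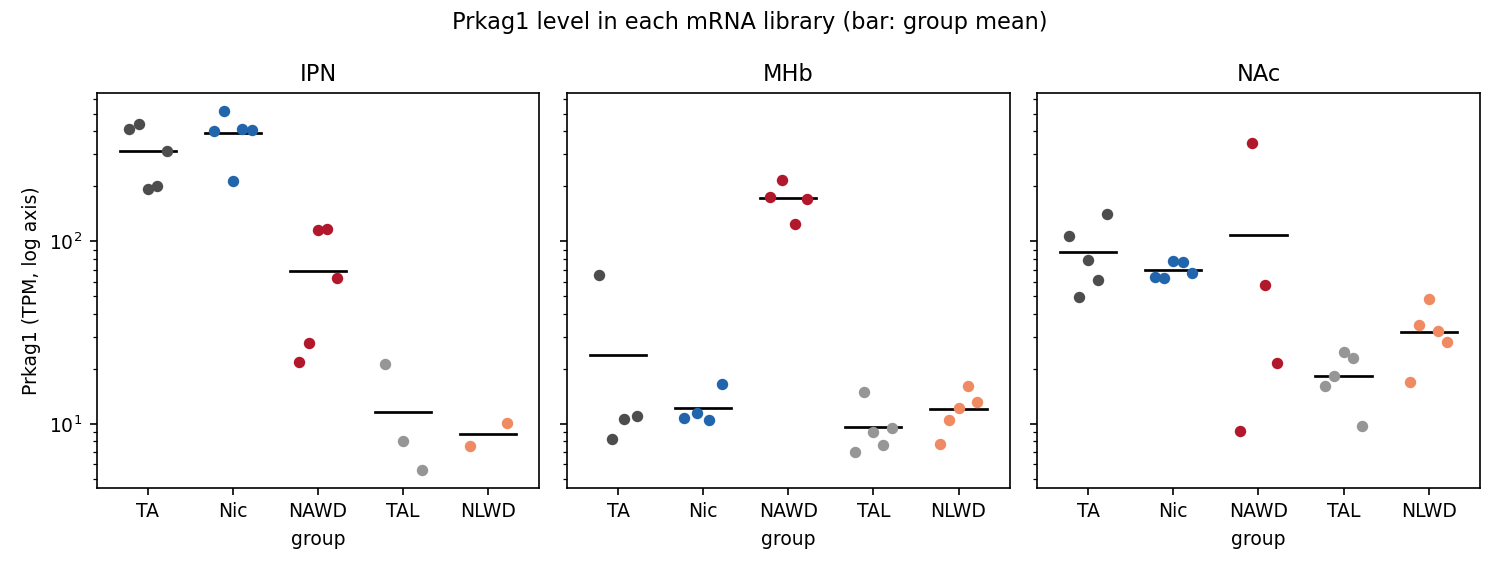
Prkag1 level in each of the 66 mRNA libraries (TPM, log axis), by region and group, with bars at the group means. In the MHb the 4 NAWD libraries sit between 124.67 and 217.02 TPM above all TA and Nic libraries, whereas in the IPN the 5 NAWD libraries, at 21.73 to 117.17 TPM, sit below all TA and Nic libraries.

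In the IPN, Prkag1 was lower in NAWD libraries than in those of TA and Nic mice. With the factors of the main fit the difference was not past the threshold. It measured 411.25, 438.60, 194.47, 201.82 and 311.18 TPM in TA mice, 399.88, 514.81, 212.96, 414.25 and 409.15 in Nic mice and 21.73, 27.83, 115.22, 117.17 and 62.98 in NAWD mice. The 5 NAWD libraries did not overlap with the TA or Nic libraries. The NAWD mean of 69.0 ± 45.9 TPM (SD, n = 5) was 4.51-fold below the TA mean of 311 ± 114 (SD, n = 5) and 5.66-fold below the Nic mean of 390 ± 110 (SD, n = 5).

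The fitted log2 difference of Prkag1 in the IPN was -1.61 (SE 0.50, adjusted p = 0.139 by limma) for NAWD against TA mice and -1.37 (SE 0.74, adjusted p = 0.419) for NAWD against Nic mice. Without the factors it was -2.39 (adjusted p = 0.00361) and -2.74 (adjusted p = 2.33e-05). As many factors taken from residuals cannot move these values, by construction, and only lower their spread (adjusted p = 7.68e-05 and 6.78e-06). That fit is thus no separate support, and the form of the factors decided the call. The paper's own DESeq2 fit lists Prkag1 as lower in NAWD than in TA mice of the IPN, at its FDR under 0.01. Leaving out the factors or taking them from residuals also moved the median of all genes, from -0.03 to -0.35 and from -0.08 to -0.64. Of the 6 genes 0 were called with the factors of the main fit in NAWD against TA mice, where 0.122% of all genes were called. At an unadjusted p under 0.05 were 4 of the 6, beside 2794 of all 18028 genes. For NAWD against Nic mice 0 were called, where 0.00555% of all genes were, and 3 had an unadjusted p under 0.05, beside 2521 of all genes.

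In the NAc, Prkag1 spread more among NAWD libraries than between the groups. It measured 106.94, 49.43, 79.01, 61.38 and 141.16 TPM in TA mice, and 62.71 to 77.85 with a median of 67.4 in Nic mice. The 4 NAWD libraries measured 9.17, 344.17, 57.45 and 21.56 TPM, so that 1 library lay above and 2 below every TA library. The NAWD mean was 108 ± 159 TPM (SD, n = 4) and 29.4 ± 25.1 (SD, n = 3) without replicate 2. The fitted log2 difference of NAWD and TA mice was 0.31 (SE 0.63, adjusted p = 0.834) and changed sign to -1.68 without that library, so no direction is given.

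At 4 weeks of withdrawal Prkag1 was low in the IPN and MHb of both groups. It measured 21.22, 8.03 and 5.59 TPM in TAL mice and 7.58 and 10.05 in NLWD mice in the IPN. In the MHb it ran from 6.98 to 14.93 TPM (median 8.99) in TAL mice and from 7.77 to 16.19 (median 12.3) in NLWD mice, with overlapping groups. In the NAc it ran from 9.71 to 24.72 TPM (median 18.2) in TAL mice and from 16.86 to 48.14 (median 32.2) in NLWD mice, again with overlap. The TAL mice of the IPN, at a mean of 11.6 ± 8.41 TPM (SD, n = 3), received the same drink as the TA mice, at 311, but were older and are among the 5 libraries that stood apart. Age and library set cannot be told apart in that gap.

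By median level, Prkag1 ran from Nic and TA mice of the IPN (409 and 311 TPM) through NAWD mice of the MHb (173), TA and Nic mice of the NAc (79.0 and 67.4), NAWD mice of the IPN (63.0) and of the NAc (39.5) to NLWD and TAL mice of the NAc (32.2 and 18.2). The remaining groups of the MHb and IPN lay between 12.3 and 8.03. Each group's range overlapped with that of the next group in this order, so neighbours are not set apart by their libraries.

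Prkag2, the gene of the gamma 2 subunit, did not share the wide range of Prkag1. In the IPN it measured 18.86, 20.08, 14.27, 12.43 and 16.55 TPM in TA mice, 23.72, 32.44, 18.68, 21.21 and 18.95 in Nic mice and 9.30, 10.01, 9.31, 8.08 and 8.29 in NAWD mice. The NAWD libraries were thus the lowest of the 3 groups and close to each other, but the fitted log2 difference from TA mice was -0.31 (SE 0.11, adjusted p = 0.185), or -0.79 (adjusted p = 0.00681) without the factors. In the MHb it measured 15.70, 18.42, 8.54 and 9.71 TPM in TA mice and 18.62, 14.39, 16.30 and 20.42 in NAWD mice, which overlapped.

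Prkag1 and Prkag2 code for subunits that take the same place in the complex, and TPM allows their transcripts to be compared per length. Prkag1 made up a median of 94.9% of the summed gamma TPM in TA mice of the IPN, 94.4% in Nic mice and 88.3% in NAWD mice, and 57.0% and 44.1% in TAL and NLWD mice. In the MHb it made up 54.4% in TA mice, 51.1% in Nic mice and 89.9% (range 88.4 to 93.8%) in NAWD mice, and 50.5% and 54.7% in TAL and NLWD mice. In the NAc the medians were 72.5, 70.7, 65.5, 44.3 and 43.7% in the same order. The medians of the other groups of the MHb thus lay between 50.5 and 54.7%, and within TA mice the share ran from 31.1% to 80.7%, the latter in replicate 1.

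The catalytic subunit genes were low in all regions. Prkaa1, for alpha 1, measured 9.5, 9.22, 5.45, 4.99 and 6.47 TPM in TA mice of the IPN, 12.10, 13.06, 7.91, 11.23 and 10.19 in Nic mice and 2.37, 2.63, 4.62, 3.49 and 2.40 in NAWD mice. All 5 NAWD libraries lay below all TA and Nic libraries, and the mean was 2.30-fold below that of TA mice. The fitted log2 difference was -0.44 (SE 0.16, adjusted p = 0.221) with the factors and -0.98 (adjusted p = 0.00583) without them.

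In the MHb, Prkaa1 measured 9.60, 3.95, 2.73 and 3.83 TPM in TA mice, 3.66, 4.03, 4.25 and 4.04 in Nic mice and 8.63, 10.23, 6.28 and 12.02 in NAWD mice. The NAWD libraries lay above all Nic libraries and above all TA libraries but replicate 1, the library that was also high in Prkag1. The fitted log2 difference of NAWD from TA mice was 0.63 (SE 0.19), given as a description.

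Prkaa2, for alpha 2, ran from 0.33 to 6.70 TPM, and Prkaa1 made up a median of 72.0, 73.2 and 74.1% of the alpha transcripts over IPN, MHb and NAc libraries. In the IPN, Prkaa2 measured 3.08, 3.52, 1.38, 2.02 and 2.08 TPM in TA mice, 4.46, 6.70, 3.12, 5.58 and 4.92 in Nic mice and 1.34, 1.58, 1.49, 0.46 and 1.06 in NAWD mice. The Nic libraries were above all NAWD libraries and overlapped with those of TA mice. Between Nic and TA mice the fit gave 0.27 (SE 0.13, adjusted p = 0.365).

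Prkab1, for beta 1, was the one gene of the 6 whose difference at 48 h was called between regions. In the IPN it measured 18.02, 16.69, 7.63, 10.08 and 13.95 TPM in TA mice and 8.71, 12.23, 13.83, 7.95 and 11.60 in NAWD mice, and these groups overlapped. In the NAc it measured 20.64, 10.04, 11.39, 11.28 and 22.02 TPM in TA mice and 4.97, 10.22, 5 and 4.70 in NAWD mice, where 3 of the 4 NAWD libraries lay below every TA library. Between NAWD and TA mice the fit gave 0.57 (SE 0.15, adjusted p = 0.0887) in the IPN and -0.57 (SE 0.19, adjusted p = 0.0994) in the NAc.

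The difference between those Prkab1 values, IPN minus NAc, was 1.15 on the log2 scale (SE 0.25, adjusted p = 0.00671 by limma), a 2.21-fold difference. It was the only one of the 6 genes called in that comparison, where 2.28% of all genes were called. Without the factors the IPN value changed sign to -0.23 while the NAc value was -1.14, and the difference of 0.91 was not called (adjusted p = 0.427). It also lost the call without any of 6 libraries: TA replicates 3 and 4 and NAWD replicates 2 and 3 of the IPN, and TA replicate 3 and NAWD replicate 2 of the NAc, with values of 1.06 to 1.18.

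For Prkag1 the same difference between the IPN and NAc was -1.91 (SE 0.88, adjusted p = 0.177) and became 0.07 without NAWD replicate 2 of the NAc. Of the 6 genes 0 were called for the difference of Nic and TA mice, where 1.94% of all genes were, and 0 for NAWD and Nic mice, where 0.0782% were. In each, 2 of the 6 had an unadjusted p under 0.05, beside 4433 and 1880 of all 16623 genes. Differences between the MHb and another region at 48 h were not tested, since the MHb contrast chose the genes.

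Prkab2, for beta 2, ran from 0.77 to 8.12 TPM. In the MHb it measured 4.20, 3.41, 2.14 and 2.20 TPM in TA mice, 0.95, 2.30, 1.92 and 2.07 in Nic mice and 1.77, 2.52, 1.87 and 3.20 in NAWD mice, and the NAWD libraries overlapped with both other groups. Its fitted log2 difference of NAWD and TA mice, -0.44 (SE 0.14), was the only negative value over 0.1 among the 6 genes in that contrast. Prkab1 measured 9.80, 5.42, 4.69 and 5.64 TPM in TA mice of the MHb, 3.40, 5.58, 3.22 and 2.92 in Nic mice and 11.27, 11, 6.73 and 9.57 in NAWD mice. The NAWD libraries lay above all Nic libraries, and the fitted difference from Nic mice was 0.71 (SE 0.23). Prkab1 made up 88.0, 72.2 and 71.6% of the beta transcripts as medians over IPN, MHb and NAc libraries.

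**Figure D2:**
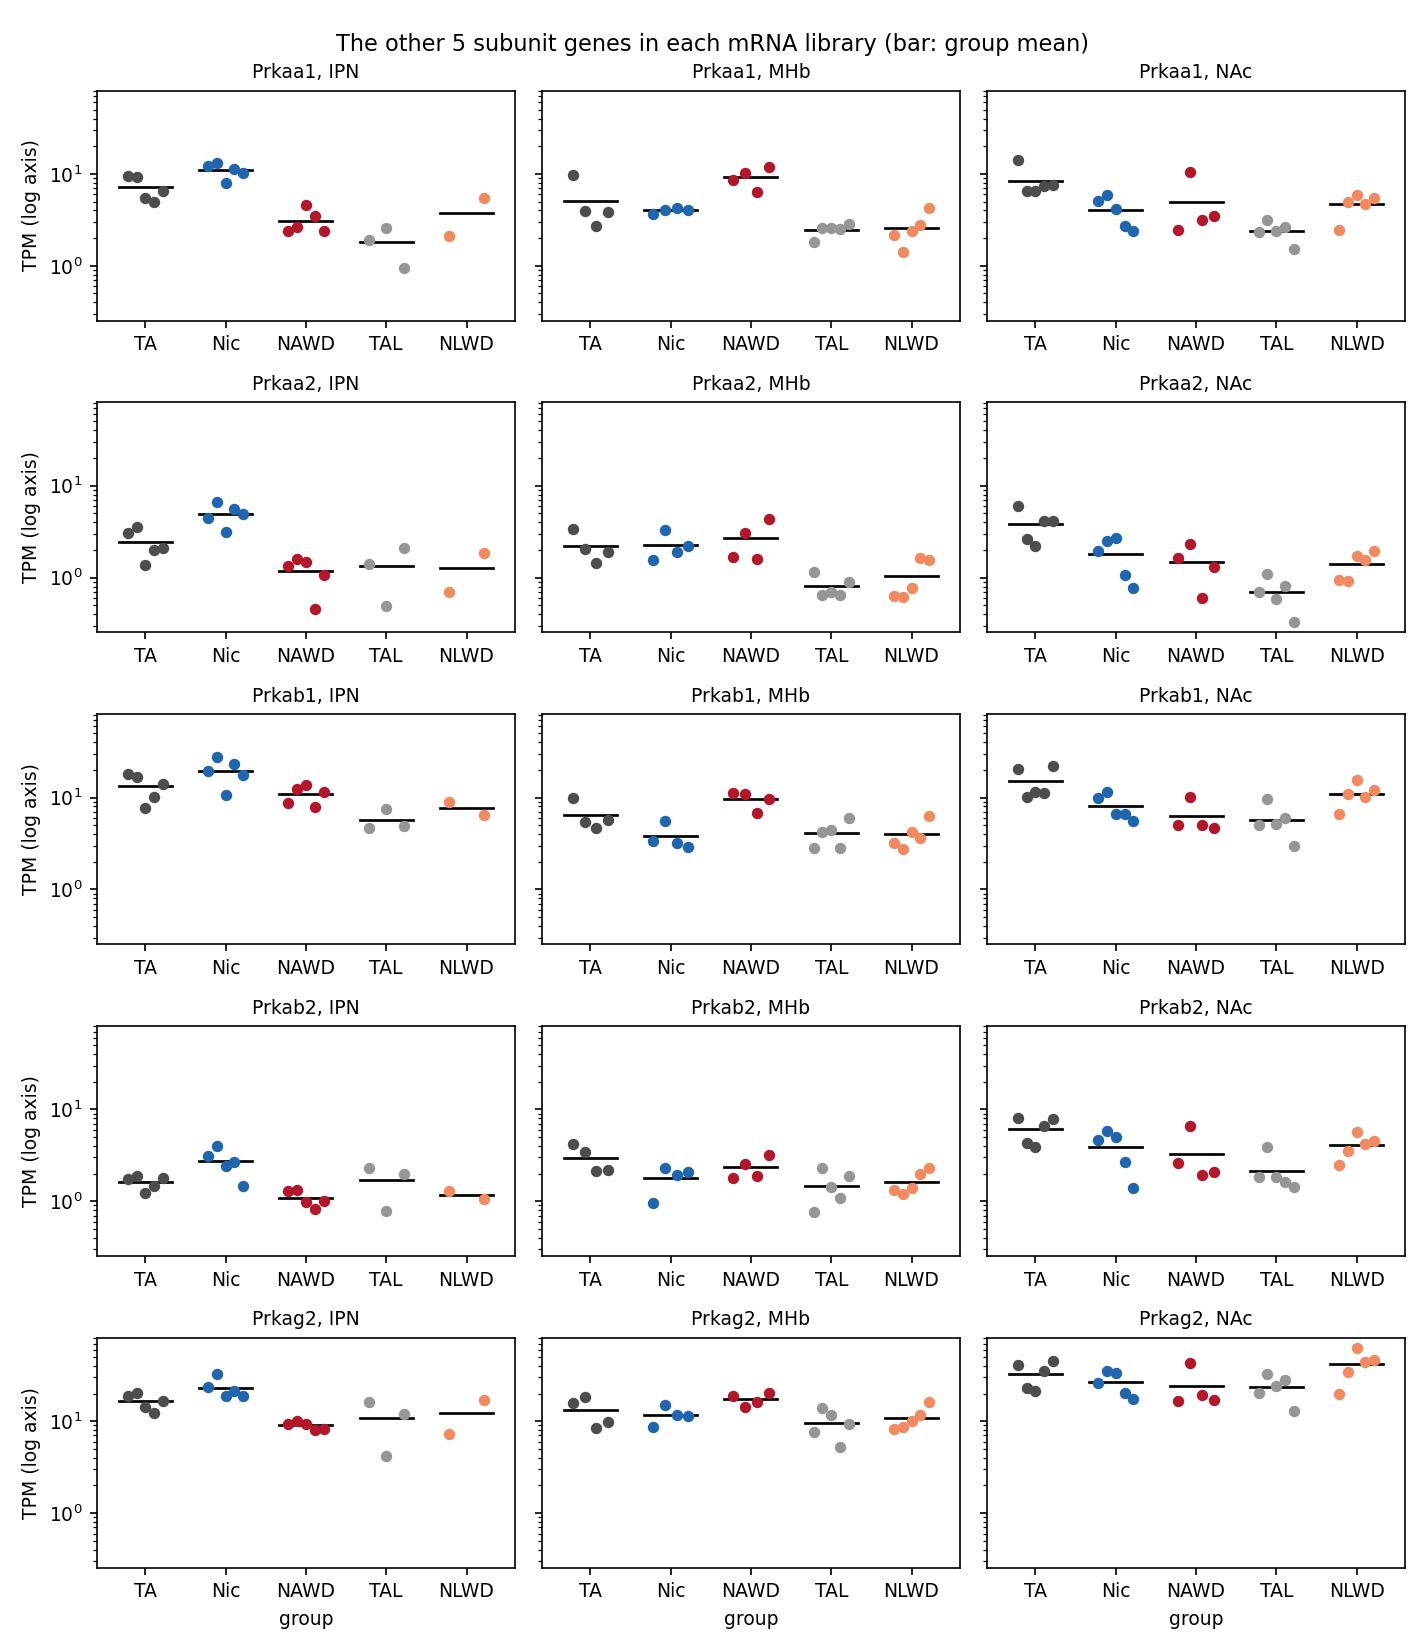
The other 5 subunit genes in each of the 66 mRNA libraries (TPM, log axis), 1 row of panels per gene and 1 column per region, with bars at the group means. Prkaa1 of the IPN sits between 2.37 and 4.62 TPM in NAWD mice, below the TA and Nic libraries, and NAWD replicate 2 of the NAc stands above the other NAWD libraries in each row.

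During nicotine itself, the 6 genes did not pass the test in any region. In the IPN 0 of 6 were called for Nic against TA mice by limma, where 0% of all genes were called. At an unadjusted p under 0.05 were 0 of 6, beside 2506 of all 18028 genes. The fitted log2 differences ran from -0.24 (Prkag1) to 0.27 (Prkaa2). In the MHb, Prkag1 was not tested because its TA libraries served in the contrast that chose it. Of the other 5, 0 were called there, as were 0% of all genes. At an unadjusted p under 0.05 were 0 of the 5, beside 2109 of all 17013 genes. The Prkag1 difference there was 0.31 (SE 0.26) with the factors and -0.39 without them, and the TA and Nic libraries overlapped.

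In the NAc 335 genes were called between Nic and TA mice, 1.95% of all, but 0 of the 6 were. At an unadjusted p under 0.05 was 1 of the 6, Prkab1, beside 5283 of all 17182 genes. Prkab1 measured 9.98, 11.41, 6.64, 6.56 and 5.61 TPM in Nic mice, and its fitted log2 difference was -0.37 (SE 0.17, adjusted p = 0.162). That of Prkag1 was 0.63 (SE 0.57, adjusted p = 0.484). The count of 335 rested on single libraries: it was 0 without any one of TA replicates 1, 3 and 4 or of the 5 Nic libraries, 126 without TA replicate 5 and 1249 without TA replicate 2. At 48 h in the NAc 0 of 6 were called against TA mice, and 0% of all genes. At an unadjusted p under 0.05 was 1 of 6, beside 3688 of all genes. Against Nic mice 0 of 6 were called, and 0.0175% of all genes. At an unadjusted p under 0.05 were 0 of 6, beside 2604 of all genes.

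At 4 weeks of withdrawal 0 of 6 genes were called in any region, with 0 at an unadjusted p under 0.05. Of all genes, 910 of 12770 had such a p in the IPN, 1058 of 16956 in the MHb and 2626 of 17972 in the NAc. The share of all genes called was 0.0861% for the IPN, 0.0059% for the MHb and 0% for the NAc. In the MHb the fitted log2 differences of NLWD and TAL mice lay between -0.07 (Prkab1) and 0.23 (Prkag1, SE 0.16, adjusted p = 0.825). In the NAc they lay between -0.13 (Prkag2) and 0.20 (Prkaa1). Without the factors all 6 were positive there, from 0.49 (Prkaa2) to 0.86 (Prkab1), beside a median of 0.40 over all genes. Prkag1 was then at 0.76 (adjusted p = 0.0706 by limma). In the IPN, with 2 NLWD libraries, the SE of Prkag1 was 0.70 around -0.27 and its sign changed when 1 TAL library was left out.

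**Figure D3:**
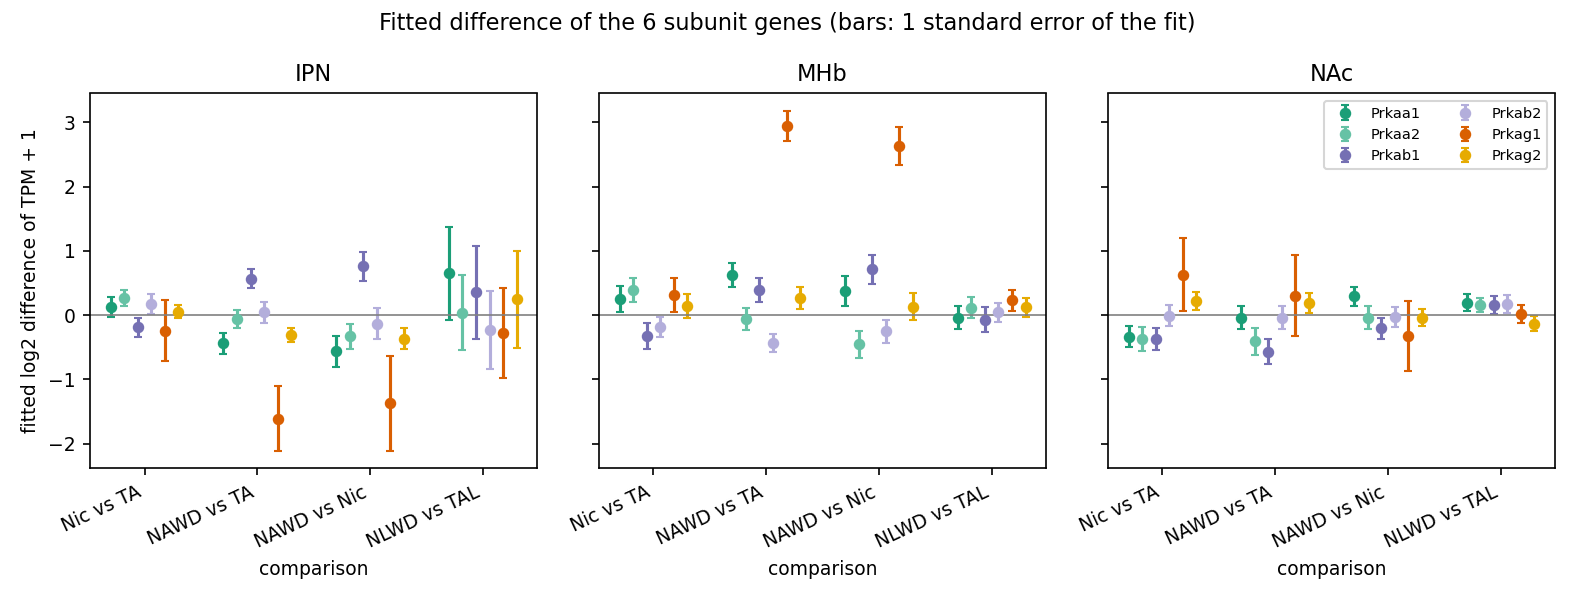
Fitted log2 difference of TPM + 1 for the 6 subunit genes in 4 comparisons of treatment per region, with bars of 1 standard error of the fit. Prkag1 sits at 2.95 and 2.63 in the MHb for NAWD against TA and Nic mice and at -1.61 and -1.37 in the IPN, while the other 5 genes sit between -0.57 and 0.76 in these comparisons.

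The regions themselves differed in several subunit genes when only TA mice were compared, with limma and no factors, although region and library set cannot be told apart there. The IPN had more Prkag1 than the NAc (log2 difference 1.84, SE 0.42, adjusted p = 0.00178), less Prkab2 (-1.41, SE 0.23, adjusted p = 8.62e-05) and less Prkag2 (-0.92, SE 0.26, adjusted p = 0.00723). Of the 6 genes 3 were called, where 26.9% of all genes were. With no filter on low values Prkag1 and Prkag2 lost the call (adjusted p = 0.0128 and 0.0139), and Prkag2 also lost it without any one of IPN replicates 3, 4 and 5 or NAc replicates 1, 4 and 5 (adjusted p up to 0.0265). Prkag1 was higher in all 5 IPN libraries, at 194.47 to 438.60 TPM, than in all 5 NAc libraries, at 49.43 to 141.16. Prkab2 ran from 1.22 to 1.88 TPM in the IPN and from 3.87 to 8.12 in the NAc.

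The MHb had less Prkag2 (-1.28, SE 0.27, adjusted p = 0.000761), Prkab1 (-1.10, SE 0.30, adjusted p = 0.00505) and Prkab2 (-0.83, SE 0.25, adjusted p = 0.00925) than the NAc, 3 of the 5 genes tested, where 34.2% of all genes were called. Without any one of MHb replicates 2, 3 and 4 or NAc replicates 1 and 5 both Prkab1 and Prkab2 lost the call (adjusted p up to 0.0352), as Prkab2 did without NAc replicate 4. Against the IPN 0 of 5 were called, where 15.4% of all genes were, and the smallest adjusted p was 0.0251 for Prkab1 (-0.94, SE 0.30). At an unadjusted p under 0.05 were 2 of the 5, beside 6121 of all 16648 genes. Prkag1 was lower in the MHb of TA mice than in the IPN (log2 difference -4.10) and in the NAc (-2.27), given as a description because its MHb libraries served in the choice.

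The median gene was also lower in the MHb than in the NAc of TA mice (-0.35) and in the IPN than in the NAc (-0.22), and -0.09 in MHb against IPN. Quantile normalization brought these medians to 0.0056, -0.0036 and 0.020. Under it the shares of called genes that were higher went from 20.2 to 46.6% (MHb against NAc), from 24.7 to 46.9% (IPN against NAc) and from 32.9 to 44.6% (MHb against IPN), and Prkab1 and Prkab2 lost their calls between the MHb and NAc (adjusted p = 0.0258 and 0.0191). The same share went from 29.6 to 46.2% in Nic against TA mice of the NAc, from 68.2 to 46.7% in NAWD against TA mice of the IPN, and for the difference of IPN and NAc from 67.4 to 54.2% (Nic against TA), from 79.9 to 50.9% (NAWD against TA) and from 100% of 13 to 30.0% of 20 genes (NAWD against Nic). The Prkab1 difference between the IPN and NAc kept its call under it (1.09, adjusted p = 0.00359).

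The genes most like Prkag1 over the 66 libraries moved with it in every region. Likeness was Pearson's r of log2(TPM + 1) with each value taken relative to its region mean, among 6449 genes with a mean of at least 5 TPM in each region, and it is a description, since the points share libraries, groups and mapping. The 5 highest were Tpi1, the glycolytic triosephosphate isomerase (0.98), BC029722 (0.98), Marcksl1, an actin-binding MARCKS-like protein (0.97), Mbd3, a subunit of the NuRD chromatin complex (0.97), and Spns1, a lysosomal transporter (0.97). Within single regions their r was 0.95 to 0.98, or 0.99 for Tpi1 and Spns1 in the IPN, and within groups 0.90 to 0.95.

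Tpi1 measured 1601 to 3605 TPM in TA mice of the IPN, 235 to 1213 in NAWD mice of the IPN, 92.6 to 137 in Nic mice of the MHb and 705 to 1266 in NAWD mice of the MHb. Its NAWD libraries were low in the IPN and high in the MHb, as those of Prkag1 were. The 3 lowest were 1810037I17Rik (-0.80), Ndufb4c (-0.80) and Gm12338 (-0.77). 1810037I17Rik measured 60.4 to 107 TPM in TA mice and 80.4 to 129 in NAWD mice of the IPN, and 138 to 239 and 61.4 to 92.1 in those of the MHb. Its NAWD libraries were lower without overlap in the MHb, while in the IPN the groups overlapped.

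Prkag1 was not alone in this pattern. The median r of all 6449 genes with it was 0.55, 67 genes were above 0.9 and 3697 (57.3%) above 0.5, while 111 were below -0.5. Among the other subunit genes r was 0.84 for Prkaa1, 0.72 for Prkab1, 0.62 for Prkaa2, 0.60 for Prkag2 and 0.48 for Prkab2. Among its neighbours on chromosome 15 it was 0.70 for Ddn, 0.64 for Lmbr1l, 0.54 for Kmt2d, the nearest, 0.38 for Dhh, 0.26 for Rhebl1, 0.25 for Tuba1b and 0.08 for Wnt1, which was near 0 TPM throughout.

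The 100 genes of highest r had shorter transcripts than all genes compared, with a median of 2072.5 bases and 55.9% GC (98 of 100 matched) against 2701 bases and 52.2% GC (6081 of 6449 matched). Of the 100 genes of lowest r only 63 matched, too few for a comparison, and these were shorter still, with a median of 729 bases and 53.9% GC. Prkag1 has 1652 bases and 52.8% GC, Tpi1 1607, BC029722 1615, Marcksl1 1605, Mbd3 1662 and Spns1 2219. The other subunit transcripts are longer, with 2089 bases for Prkab1, 3331 for Prkag2, 4655 for Prkaa1, 5006 for Prkab2 and 7969 for Prkaa2.

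**Figure D4:**
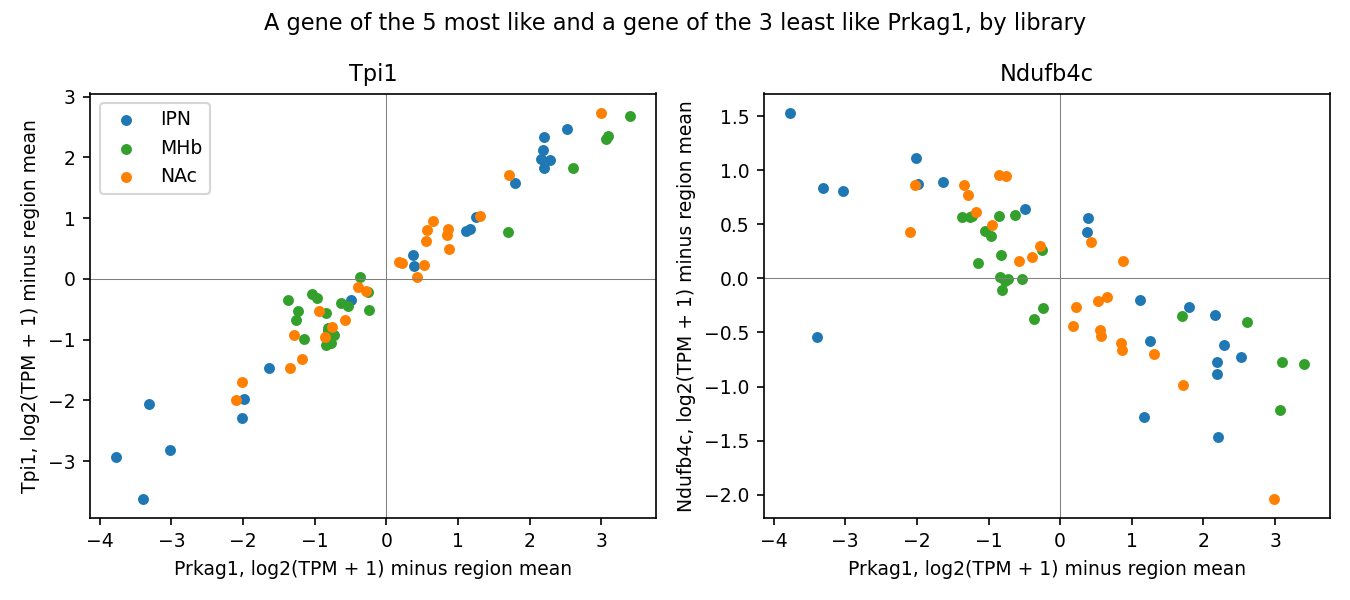
Tpi1, the gene of highest r with Prkag1, and Ndufb4c, 1 of the 3 genes of lowest r, against Prkag1. Each is log2(TPM + 1) minus its region mean, with 1 point per mRNA library. The points of Tpi1 rise with Prkag1 (r = 0.98) and those of Ndufb4c fall (r = -0.80), in all 3 regions.

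In the IPN the share of uniquely mapped reads moved with the level of Prkag1, while in the MHb and NAc it did so between some groups and not others. The part of this share in the differences was not tested. The share of uniquely mapped reads was 71.95 to 81.03% in TA mice, 74.41 to 85.15% in Nic mice, 69.31 to 74.37% in NAWD mice and 65.70 to 70.75% in TAL and NLWD mice of the IPN, in the order of the Prkag1 levels. In the MHb it was 73.37 to 80.39% in TA mice, 69.48 to 75.31% in Nic mice and 74.92 to 80.02% in NAWD mice. There TA replicate 2, at 77.44%, measured 8.30 TPM of Prkag1, and NAWD replicate 1, at 74.92%, measured 175.30. In the NAc the share was 81.03 to 86.71% in TA mice and 70.11 to 79.49% in Nic mice, without overlap, while their Prkag1 levels overlapped. It was 65.17 to 74.42% in TAL and 73.80 to 81.31% in NLWD mice of the NAc. Among these the library of lowest share was also lowest in Prkag1, at 9.71 TPM, and that of highest share highest, at 48.14. In the MHb it was 69.81 to 75.62% in TAL and 72.16 to 76.03% in NLWD mice. The 2 libraries high in Prkag1 for their group, TA replicate 1 of the MHb and NAWD replicate 2 of the NAc, had the highest shares of their groups, 80.39 and 81.12%.

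Some cell type markers moved as well, and their part was not tested either. Of 11 marker lists 5 lay lower in all NAWD than in all TA libraries of the IPN and 6 overlapped, while in the MHb 4 lay higher and 7 overlapped. In the IPN the 6 oligodendrocyte markers, all above 0 TPM, summed to 4962 to 9511 TPM in TA mice, 6261 to 18497 in Nic mice and 1538 to 2980 in NAWD mice. The 5 microglia markers summed to 321 to 681, 330 to 666 and 169 to 298, and the 4 endothelial markers to 247 to 582, 314 to 532 and 76.4 to 213, in the same order. The 6 markers of IPN neurons, at 1170 to 2036 TPM in TA and 1366 to 2872 in NAWD mice, and the 5 blood markers, at 2000 to 9691 and 4943 to 16798, overlapped. In the MHb the oligodendrocyte sum was 685 to 1556 TPM in TA mice, 683 to 965 in Nic mice and 1652 to 2613 in NAWD mice, and the microglia sum 51.6 to 153, 64.7 to 90.4 and 236 to 287. The 7 MHb markers themselves summed to 577 to 1070, 289 to 585 and 1267 to 1526 TPM, and the 6 accumbens markers to 53.6 to 104, 35.3 to 53.8 and 140 to 265, so that each of these 4 lists was highest in the NAWD libraries of the MHb. The astrocyte, endothelial and choroid plexus sums of the MHb were among those that overlapped between NAWD and TA mice.

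**Figure D5:**
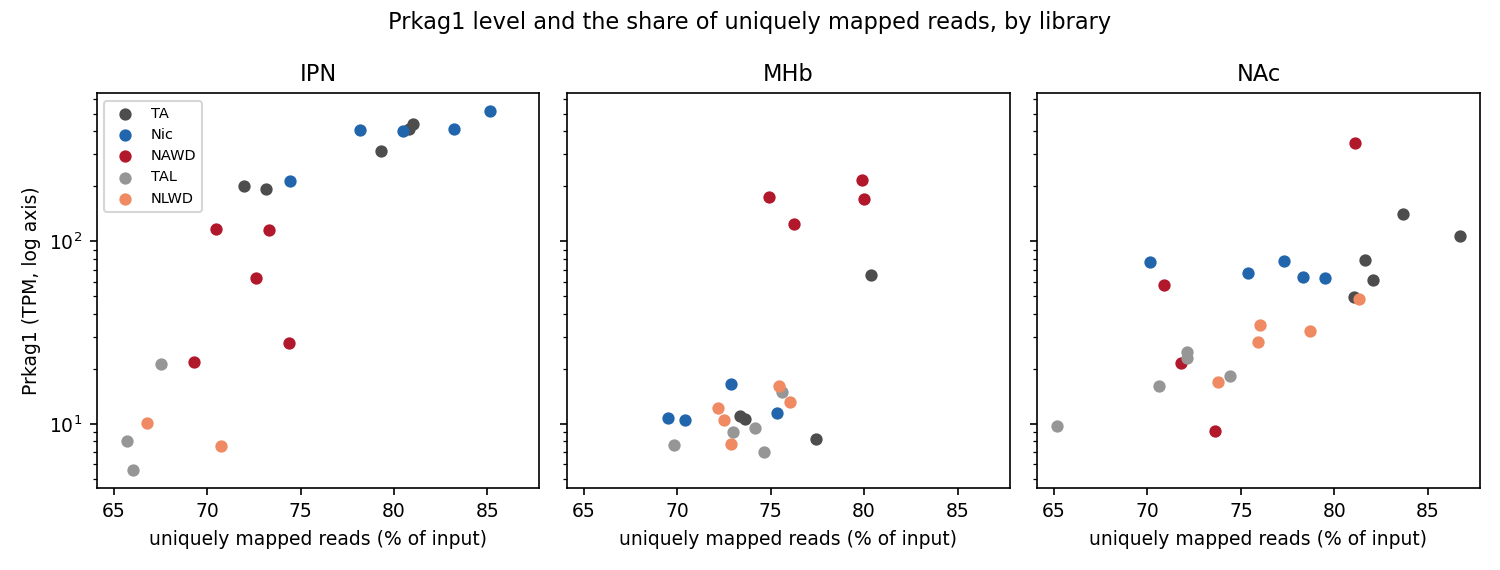
Prkag1 level (TPM, log axis) against the share of uniquely mapped reads in each mRNA library (percent of input reads), 1 panel per region and 1 colour per group. In the IPN the TAL and NLWD libraries, at 65.70 to 70.75%, hold the lowest Prkag1 levels, and in the MHb TA replicate 1, at 80.39%, stands above the other TA libraries. In the NAc the Nic libraries lie at lower shares than the TA libraries and overlap with them in Prkag1.

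The kinases that act on AMPK were measured as a list of 8 genes for the LKB1 complex, the CaMKKs and TAK1. In the 10 comparisons of treatment other than those of NAWD mice of the MHb, which are left out of all counts for these lists, 1 gene was called in 1 comparison and 0 in the other 9, with 0 to 4 at an unadjusted p under 0.05. Of the 12770 to 18028 genes tested per comparison, 910 to 5283 had such a p. That gene was Map3k7, which encodes TAK1, in Nic against TA mice of the NAc. It measured 20.97 to 51.90 TPM (median 36.7) in TA mice and 6.95 to 13.73 (median 13.1) in Nic mice, without overlap, and fell by 1.26 on the log2 scale (log2 difference -1.26, SE 0.24, adjusted p = 0.00922), where 1.95% of all genes were called. The call was lost without any of the 10 TA and Nic libraries but TA replicate 2 (adjusted p up to 0.0430). The list's median was -0.25 beside 0.02 over all genes. The Map3k7 difference of NAWD and TA mice also differed between the IPN and NAc (1.57, SE 0.35, adjusted p = 0.00807), a call lost when 12 of 19 libraries were left out in turn (adjusted p up to 0.0381) and with no factors.

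Between regions of TA mice, Camkk2, the calcium-driven AMPK kinase, was the most different gene of this list. It measured 26.40 to 69.79 TPM in the NAc, 4.73 to 10.75 in the IPN and 4.57 to 9.34 in the MHb, and both were lower than the NAc, by -2.55 (SE 0.28, adjusted p = 5.39e-07) and -2.80 (SE 0.30, adjusted p = 2.46e-07) on the log2 scale. Camkk1 and Map3k7 were lower in both too. Cab39l, a scaffold of the LKB1 complex, was higher in the MHb, at 13.94 to 24.11 TPM, than in the IPN, at 5.47 to 9.51 (1.39, SE 0.25, adjusted p = 0.000276), and than in the NAc (0.96, adjusted p = 0.0034). Camkk1 in the IPN and Cab39l against the NAc lost the call without some libraries (6 of 10, with an adjusted p up to 0.0156, and MHb replicates 1 and 2, with 0.0109). Of the 8 genes 3 were called in IPN against NAc, 4 in MHb against NAc and 1 in MHb against IPN, where 26.9, 34.2 and 15.4% of all genes were.

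The AMPK-related kinases, which LKB1 also phosphorylates, were a list of 12 or 13 tested genes. In Nic against TA mice of the NAc 11 of 13 had an unadjusted p under 0.05, beside 5283 of all 17182 genes. Called were 3 of 13, where 1.95% of all genes were, all lower: Sik2 (-1.67, SE 0.34, adjusted p = 0.00999), Mark1 (-1.03, SE 0.20, adjusted p = 0.00931) and Nuak1 (-0.86, SE 0.16, adjusted p = 0.00922). Each of these 3 calls was lost without any of the 10 TA and Nic libraries but TA replicate 2, with adjusted p up to 0.0508, while the log2 difference of Sik2 stayed between -1.99 and -1.38. The list's median was -0.86 beside 0.02 over all genes. Mark1 measured 37.05 to 96.19 TPM in TA mice and 14.16 to 31.25 in Nic mice, and Sik2 8.25 to 28.75 and 2.07 to 6.15, without overlap. In the IPN the same contrast had 0 calls and 0 genes at an unadjusted p under 0.05, and the difference between the regions was called for Sik2 (2.17, SE 0.47, adjusted p = 0.00758) and Mark1 (1.21, SE 0.27, adjusted p = 0.00975), calls lost when 13 and 17 of 20 libraries were left out in turn (adjusted p up to 0.0274 and 0.0283). In the other 9 comparisons of treatment 0 genes of the list were called.

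The list of 18 AMPK substrates had 0 calls in these 10 comparisons of treatment, with medians from -0.21 to 0.31. At an unadjusted p under 0.05 were 0 to 6 of its genes, beside 910 to 5283 of all genes. The smallest p in NAWD against TA mice of the IPN belonged to Pfkfb3, a glycolytic regulator (-0.51, SE 0.17, adjusted p = 0.176), and Ulk1, which starts autophagy (-0.35, SE 0.12, adjusted p = 0.181). Between regions of TA mice 7 of 18 were lower in the MHb than in the NAc and 0 higher, where 34.2% of all genes were called and 4547 of those 5695 were lower. Pfkfb3 measured 1.76 to 5.64 TPM in the MHb, 10.42 to 29.52 in the IPN and 9.83 to 22.24 in the NAc. It was the 1 substrate of 18 called in MHb against IPN (-2.27, SE 0.33, adjusted p = 2.98e-05), where 15.4% of all genes were. In IPN against NAc 2 of 18 were called, where 26.9% of all genes were. Acacb, an acetyl-CoA carboxylase, was higher in the IPN (2.09, SE 0.37, adjusted p = 0.000178). Foxo3 was lower (-0.92, SE 0.26, adjusted p = 0.00700), a call lost when 6 of 10 libraries were left out in turn.

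The 7 genes next to Prkag1, of which 5 or 6 were tested, had 0 calls in these 10 comparisons of treatment. At an unadjusted p under 0.05 were 0 to 3 of them, beside 910 to 5283 of all genes. In NAWD against TA mice of the IPN 0 of 6 had an unadjusted p under 0.05, and in the same contrast of the MHb the list's fitted median was -0.05, given as a description. Ddn, a postsynaptic protein gene, measured 351.87 to 941.09 TPM in the NAc of TA mice, 11.80 to 90.40 in the MHb and 3.63 to 20.20 in the IPN, an order unlike that of Prkag1.

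The levels of the miR-34 miRNAs differed between regions. miR-34c-5p ran from 11978 to 27140 RPM (a miRNA's share of the miRNA reads) in the 25 MHb libraries, between 625.4 and 997 in the IPN, and up to 2210 in the NAc, where the lowest was 301. miR-34b-5p ran from 576 to 1127 RPM in the MHb, against 13.9 to 147 in the IPN and 8.78 to 83.2 in the NAc. miR-34a-5p was highest in the IPN, at 410 to 1194 RPM, against 278 to 583 in the MHb and 34.3 to 119 in the NAc, with overlap of the first pair, and miR-449a-5p was at most 18.9 RPM anywhere.

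At 48 h the level of miR-34c-5p overlapped between NAWD and TA mice of the MHb, where Prkag1 was higher. It measured 17646 ± 4107 RPM (SD, n = 5) in TA mice, 16563 ± 2592 (SD, n = 5) in Nic mice and 21329 ± 3857 (SD, n = 5) in NAWD mice, and miR-34a-5p measured 363 ± 24.4, 445 ± 116 and 361 ± 58.7 (SD, n = 5 each). In the IPN, where Prkag1 was lower, miR-34a-5p measured 559 ± 193 RPM in TA mice, 597 ± 80.2 in Nic mice and 1008 ± 190 in NAWD mice (SD, n = 5 each). TA libraries, at 426 to 878, overlapped with NAWD libraries, at 706 to 1194. In TAL and NLWD mice, lowest in Prkag1 there, it measured 733 ± 198 and 695 ± 247. Means of miR-34c-5p were 670, 758, 901, 780 and 857 RPM in TA, Nic, NAWD, TAL and NLWD mice of the IPN. Those of miR-34b-5p were 23.5, 21.4, 43.9, 98.1 and 91.6. The paper's own fit lists miR-34a-5p and miR-34b-5p as higher in NAWD than in TA mice of the IPN, at its FDR under 0.01. It lists Prkag1 as a predicted target of both, at the site shown above. Here the miRNA levels are given as values, with no test, and a seed match is no measure of binding.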

How the data were processed

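The 6 genes and all lists were chosen with earlier results of these data known. The authors sequenced stranded mRNA libraries, aligned the reads by STAR 2.5.3a (mm10), ran RSEM 1.3.0 for the quantification and deposited its TPM. For miRNAs the authors trimmed reads with cutadapt 1.11, mapped them with Bowtie 1.1.2 and deposited RPM. The deposited read counts per library are mapping totals by the authors, and the fraction of uniquely mapped reads is theirs too. The authors' tables of fold changes from DESeq2 1.14.1 fits were not used. The annotation release is not given in the sources used here. Of 43432 gene identifiers 42462 had a symbol.

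TPM was tested with limma 3.58.1 (trend) in R 4.3.3 on log2(TPM + 1), for genes above 0 TPM in every group in a library share of 0.5 or more. TA, Nic and NAWD libraries of a region shared 1 fit, and NLWD and TAL libraries another. Factors of unwanted variation, in number as in the study (2 in the IPN and MHb and 1 in the NAc at 48 h, and 1, 1 and 2 at 4 weeks), were estimated from differences among libraries of one group with all genes, a form assumed because the study does not name its own. The study's fold of over 2 was not required. P-values measure the spread between libraries of 4 pooled brains. No p is given for the 6 genes or the lists in NAWD mice of the MHb, nor for Prkag1 in comparisons with TA mice of the MHb. The scripts were tested on simulated data. Python 3.11.15 and matplotlib 3.10.9 drew the figures, and positions and transcript lengths are from GENCODE M21.

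Named beside the 6 genes were up to 4 called genes per list and comparison by smallest p, or up to 2 where none was called, the 5 genes most and the 3 least like Prkag1, its neighbours and 4 miRNAs. Alternatives were a pseudocount of 0.1, other filters, quantile normalization, a block by replicate number, factors from residuals, no factors, the libraries numbered 1 to 4, only the groups compared, and leaving out each library, and were applied to the called genes of the lists after seeing the data.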

Additional observations from a re-analysis of the deposited data

Results flagged for a closer look

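In 9 of 78 combinations of gene and group with 4 or more libraries, 1 library lay far from the rest, where chance gives about 0.05 of such groups. In the MHb, Prkag1 measured 65.66 TPM in TA replicate 1 (others 8.30 to 11.03) and 16.50 in Nic replicate 4 (others 10.47 to 11.42). In NAWD replicate 2 of the NAc, Prkag1 measured 344.17 TPM (others 9.17 to 57.45), Prkag2 43.25 (16.45 to 19.35), Prkaa1 10.58 (2.48 to 3.45), Prkab1 10.22 (4.7 to 5) and Prkab2 6.63 (1.92 to 2.58), so that 5 of the 6 genes stood apart in 1 library. Its oligodendrocyte and microglia marker sums, 8539 and 996 TPM, were also above those of the other NAWD libraries, at 1724 to 2011 and 143 to 245.

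Prkaa1 measured 14.16 TPM in TA replicate 1 of the NAc (others 6.50 to 7.48), and Prkab2 3.86 TPM in TAL replicate 2 of the NAc (others 1.42 to 1.86).

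The Prkab1 difference of NAWD and TA mice differed between the IPN and the NAc by 1.15 on the log2 scale, by the limma test of that difference described above.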

How the results depend on the processing

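Counts of called subunit genes moved most with the factors. Factors from residuals leave each fitted difference at its value with no factors, by construction, and only lower its spread. With them the counts were 5 in Nic against TA, 4 in NAWD against TA and 6 in NAWD against Nic mice of the IPN. Of all 18028 genes there, 7523, 8632 and 12426 were called. In the NAc they were 4 in Nic against TA, 5 in NAWD against TA and 6 in NLWD against TAL mice. Calls over all genes there were 4529 and 5575 of 17182, and 8672 of 17972. With no factors they were 3 in NAWD against TA and 5 in NAWD against Nic mice of the IPN, where 1643 and 10975 of 18028 genes were called. For IPN minus NAc they were 3 (Nic against TA), 0 (NAWD against TA) and 1 (NAWD against Nic). Of all 16623 genes, 3869, 0 and 1341 were called there. With the factors of the main fit, calls over all genes of the IPN were 22 in NAWD against TA and 1 in NAWD against Nic mice. The IPN minus NAc count for NAWD against TA also became 0 with no filter and with the replicate block, and was 0 to 1 without single libraries. In TA mice, MHb against IPN gave 3 with quantile normalization, 2 with the replicate block and 1 to 2 without single libraries, MHb against NAc 2 with no filter and with quantile normalization and 2 to 5 without single libraries, and IPN against NAc 1 with no filter. Comparisons with NAWD mice of the MHb, and Prkag1 in comparisons with TA mice of the MHb, are left out of these counts, since the text gives no test there.

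Prkag1 differences (log2) were, with no factors and with factors from residuals alike, -2.39 (adjusted p = 0.00361 and 7.68e-05) in NAWD against TA and -2.74 (2.33e-05 and 6.78e-06) in NAWD against Nic mice of the IPN, and changed sign to 0.35 in Nic against TA mice of the IPN, -0.39 in those of the MHb and -0.23 in those of the NAc, and to -0.83 in NAWD against TA mice of the NAc. For NLWD against TAL mice of the NAc the Prkag1 difference was 0.76 with either (adjusted p = 0.0706 and 0.000134 by limma). With no factors the IPN minus NAc difference of Nic against TA was 0.58. In Nic against TA mice it was -0.15 in the MHb with a pseudocount of 0.1 and -0.086 in the NAc with only the groups compared. Without single libraries it ran from -0.44 to 0.075 (IPN, Nic against TA), from -0.66 to 0.28 (IPN, NLWD against TAL), and in the NAc from -1.68 to 0.78 (NAWD against TA), -1.51 to 0.26 (NAWD against Nic) and -0.25 to 0.23 (NLWD against TAL), and for IPN minus NAc from -2.38 to 0.074 (NAWD against TA) and -1.61 to 0.16 (NAWD against Nic). The causes were not tested.

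Of same-numbered pairs at 48 h, 4 of 15 in the IPN, 3 of 12 in the MHb and 4 of 13 in the NAc correlated above 0.1. Their r ran up to 0.57, 0.21 and 0.44. Pairs of unlike numbers were not correlated, so whether the numbers pair the libraries cannot be told. Pairs across regions were not correlated either. Whether punches of different regions came from the same brains is not given, and the main fits between regions treated their libraries as separate. With the replicate block Prkag1 was 0.13 in NAWD against Nic mice of the IPN and -0.79 against TA mice, and 0.29 for IPN minus NAc in NAWD against Nic mice. Over all alternatives 99 of 1943 values of the 6 genes changed sign, 0 of them called. TPM keeps no depth, so no counting error can be given for single values.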
